A study of Mus musculus with 10 samples.

Results

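The genes described are those of mitochondrial complex I whose symbols start with Nduf. All protein-coding entries of the deposited expression table with such a symbol were taken, which gave 48 of the 78317 genes listed. They fall into 37 structural subunits, 8 assembly factors (Ndufaf1 to Ndufaf8) and 3 others: Ndufa4, Ndufa4l2 and Ndufb11b. Polyadenylated RNA was sequenced from the medial prefrontal cortex, a frontal region with mixed cell types, of wild-type mice. A control group of 5 libraries (numbers 3, 4, 5, 7 and 9) came from mice injected with a control adeno-associated virus (AAV). A miR-130a group of 5 libraries (numbers 13, 14, 15, 17 and 18) came from mice injected with an AAV for overexpression of the microRNA miR-130a-3p. The promoter and target cells of the virus, the time after injection, and the age and sex of the mice are not given in the sources used here. The labels do not say how many mice there were, and the p-values below therefore speak of the spread among libraries, which may be technical.

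Complex I, the NADH:ubiquinone oxidoreductase, is the entry point of the mitochondrial respiratory chain: it takes electrons from NADH, passes them along iron-sulfur clusters to ubiquinone, and pumps protons across the inner membrane. Its catalytic core is built partly from nuclear genes and partly from the mitochondrially encoded ND genes, and many supernumerary subunits surround that core. Assembly factors help to build the complex from modules (the NADH-binding N module, the ubiquinone-binding Q module and the membrane modules named for ND1, ND2, ND4 and ND5) and are absent from the finished enzyme. Neurons draw much of their ATP from this chain.

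Transcripts of many structural subunits rose in the miR-130a group, and no assembly factor was called. Of the 37 structural subunits, 16 rose, 0 fell and 21 did not pass an adjusted p of 0.05 (limma on log2(TPM + 1), Benjamini-Hochberg over 15680 tested genes). TPM is a transcript's share of its library, already divided by transcript length and scaled to a fixed total. In all tested genes 2.19% were called higher and 11.3% lower, against 43.2% and 0 of the structural subunits. The median log2 fold change (miR-130a minus control) was 0.35 over the structural subunits, ranging from −0.06 to 0.62, with 35 of 37 above 0, and −0.09 over all tested genes. In 11 of the 37, every miR-130a library lay above every control, as in 1.85% of all tested genes; the reverse was seen in 0 of the 37 and in 9.46% of all. Of the 8 assembly factors, 0 passed in either direction, and their median was 0.10, from −0.05 to 0.37. Without the adjustment, at a p of 0.05, 24 of 37 structural subunits and 1 of 8 assembly factors were higher and 0 were lower, where 6.36% of all tested genes were higher and 22% lower; 1 of 8 is too few to read against that share. In bulk tissue, a change in the number of cells of a type and a change in RNA per cell cannot be told apart.

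The microRNA itself and the few matching sites among these genes are shown first, since the study overexpressed it. The mature mouse sequence (RefSeq, GRCm38.p6, 22 nucleotides) is given with its seed, bases 2 to 8, in capitals.
miR-130a-3p: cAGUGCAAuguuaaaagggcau
Sites were searched as TTGCACT, which pairs with bases 2 to 8, and TGCACTA, which pairs with bases 2 to 7 followed by A. The search used the 3′ untranslated region of the annotated transcript with the longest coding sequence of each gene. Other transcripts, which may have longer regions, were not searched. A site was found in 2 of 46 Nduf genes (4.35%) and in 1809 of 12734 tested genes (14.2%). The Nduf regions were short, with a median of 130.5 nucleotides against 992. Below are both sites with the 10 bases on either side, and the site in capitals.
Ndufa6: tgtgataaaaTTGCACTggtgaacccc
Ndufs4: gtgtcagctgTGCACTAtttatagtcc
The site in Ndufa6, an accessory subunit of the hydrophilic arm, starts at base 82 of a region of 100 bases. That in Ndufs4, an accessory subunit needed for a stable N module, starts at base 49 of 968. Neither gene was called: the log2 fold change was 0.25 for Ndufa6 (adjusted p = 0.251, limma) and 0.15 for Ndufs4 (adjusted p = 0.561). A match is a description of the letters and not a measured site.

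The 7 nuclear core subunits, which carry the redox centres or form the path to ubiquinone, mostly showed small differences. Ndufv2 (ENSMUSG00000024099), an iron-sulfur protein of the N module, rose: the controls were at 146, 153, 163, 141 and 158 TPM and the miR-130a libraries at 201, 179, 189, 203 and 169 TPM. All miR-130a libraries lay above all controls, with a log2 fold change of 0.30 ± 0.08 (SE; adjusted p = 0.0328, limma). The call was lost when any of 7 single libraries was left out (controls 3, 4 and 7 and miR-130a libraries 13, 14, 15 and 17; highest adjusted p = 0.0971), and without controls 7 and 9 together (0.0508), with no variance trend (0.0506) and with no filter on low values (0.0515). The other 6 did not pass. Ndufv1, which binds NADH and the flavin, averaged 178 ± 21.5 TPM in the controls and 187 ± 22.5 TPM in miR-130a libraries (SD, n = 5 each), a log2 difference of 0.07 with a 95% interval from −0.17 to 0.31. Ndufs1, the largest core subunit, had a log2 difference of 0.15 (interval −0.09 to 0.39), and the iron-sulfur and ubiquinone-path subunits Ndufs3, Ndufs7 and Ndufs8 had 0.13, 0.18 and 0.12. The median over the 7 was 0.13, and over the 30 supernumerary subunits 0.41, with 15 of the 30 higher and 29 above 0. Their median coding lengths were 789 and 411 nucleotides. With the coding length trend removed, added after the data were seen, the medians were 0.29 and 0.45. In that setting 2 core subunits were called higher, Ndufs1 among them (adjusted p = 0.0157, limma), where 10.1% of all tested genes were higher. The part of length in the difference between core and supernumerary subunits was not tested.

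In the membrane arm, the increases were spread over every module. Ndufs5 (ENSMUSG00000028648), an accessory subunit on the side of the intermembrane space, had the lowest p of the structural subunits. It stood at 334, 337, 271, 345 and 415 TPM in the controls and at 528, 475, 517, 527 and 457 TPM in miR-130a libraries. The lowest miR-130a library lay above the highest control, and the log2 fold change was 0.56 ± 0.11 (SE; adjusted p = 0.0071, limma). Ndufc2, another subunit of the ND2 module, was at 289, 276, 254, 274 and 295 TPM in the controls and 378, 347, 364, 361 and 319 TPM in miR-130a libraries, also without overlap and with narrow groups (log2 fold change 0.35, adjusted p = 0.0152). In the same module Ndufa1 (0.49, adjusted p = 0.0638), Ndufc1 (0.28) and Ndufa10 (−0.06, adjusted p = 0.825) did not pass.

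Of the 4 subunits of the ND1 module, 3 rose. Ndufa8 (ENSMUSG00000026895) was at 216, 231, 181, 213 and 244 TPM in the controls and at 312, 306, 299, 369 and 267 TPM in miR-130a libraries, without overlap (log2 fold change 0.52, adjusted p = 0.0099). Ndufa13, also known as GRIM-19, averaged 105 ± 19.3 and 146 ± 14.9 TPM (SD, n = 5 each; 0.48, adjusted p = 0.0266), and its groups overlapped because control library 9, at 135.45 TPM, exceeded miR-130a library 18. Ndufa3 passed by a small margin (0.54, adjusted p = 0.0497), with control 9 at 321 TPM above 4 of the miR-130a libraries. Ndufa9, which helps to hold the Q module to the membrane arm, did not pass (0.24, adjusted p = 0.143).

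At the far end of the membrane arm, 4 of 6 ND4 subunits and 3 of 6 ND5 subunits rose. Ndufb5 (ENSMUSG00000027673) was at 158, 182, 174, 223 and 223 TPM in the controls and at 294, 247, 289, 289 and 243 TPM in miR-130a libraries, a separation of the groups with a log2 fold change of 0.51 (adjusted p = 0.0141). The ND4 subunits Ndufb6 (0.44, adjusted p = 0.0342) and Ndufb11 (0.32, adjusted p = 0.0494) also rose. Ndufb3 (ENSMUSG00000026032), of the ND5 module, was at 111, 109, 97.9, 109 and 143 TPM in the controls and at 178, 181, 165, 205 and 137 TPM in miR-130a libraries. Control 9 alone lay above miR-130a library 18, and the log2 fold change was 0.60 ± 0.13 (SE; adjusted p = 0.0101). Ndufb9 averaged 390 ± 37.2 and 521 ± 68.9 TPM (0.41, adjusted p = 0.0273). Ndufab1, the mitochondrial acyl carrier protein, which also serves fatty acid synthesis and is present in complex I, averaged 72.3 ± 10.4 and 96.4 ± 7.77 TPM (0.42, adjusted p = 0.0275). Ndufb8, the most abundant structural subunit in control, at 407 ± 24.7 TPM, averaged 506 ± 82.6 TPM in miR-130a libraries and did not pass in the main fit (0.30 ± 0.11, SE). It was called higher without mitochondrially encoded genes, under quantile normalization and with the coding length trend removed (adjusted p = 0.039, 0.0218 and 0.0345, limma). In those settings 2.98%, 6.83% and 10.1% of all tested genes were higher. Ndufa11, which sits near the junction of the membrane modules, rose from 303 ± 31.9 to 402 ± 54.0 TPM (0.40, adjusted p = 0.0351).

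Ndufb4 (ENSMUSG00000022820), of the ND4 module, needs a caution. It rose from 48.1 ± 9.40 to 70.3 ± 8.79 TPM (SD, n = 5 each; 0.55, adjusted p = 0.0259), but the annotated pseudogene Ndufb4c stood far above it, at 466 ± 64.0 and 570 ± 78.5 TPM (0.29, adjusted p = 0.152). Reads could be split between such copies by the counting, so the division between them is uncertain. Their summed level was 515 ± 70.2 TPM in the controls and 640.5 ± 80.6 TPM in miR-130a libraries, with a 2-sided exact permutation p of 0.0317, where 0.00794 is the smallest possible.

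In the hydrophilic arm, fewer subunits were called. In the Q module 1 of 5 rose: Ndufa5 (ENSMUSG00000023089), its supernumerary subunit, which had the highest fold change of all 37. It was at 174, 156, 115, 140.0 and 191 TPM in the controls and at 230.3, 247, 243, 249.9 and 209 TPM in miR-130a libraries. The groups did not overlap, with a log2 fold change of 0.62 ± 0.13 (SE; adjusted p = 0.00954). In the N module 2 of 10 rose, Ndufv2 and Ndufs6. Ndufs6, a zinc-binding accessory subunit added late in assembly, averaged 171 ± 24.7 and 232 ± 17.7 TPM (0.44, adjusted p = 0.0210). Among N module subunits that did not pass, Ndufa2 had the lowest p (0.50, adjusted p = 0.0555), ahead of Ndufv3 (0.35, adjusted p = 0.0913). The abundant Ndufa12 averaged 339 ± 27.6 and 393 ± 60.7 TPM (0.20, adjusted p = 0.278). The median log2 fold change was 0.28 in the N module, 0.13 in the Q module, 0.50 in ND1, 0.35 in ND2, 0.44 in ND4 and 0.39 in ND5. Whether the modules differ from each other was not tested.

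**Figure D1:**
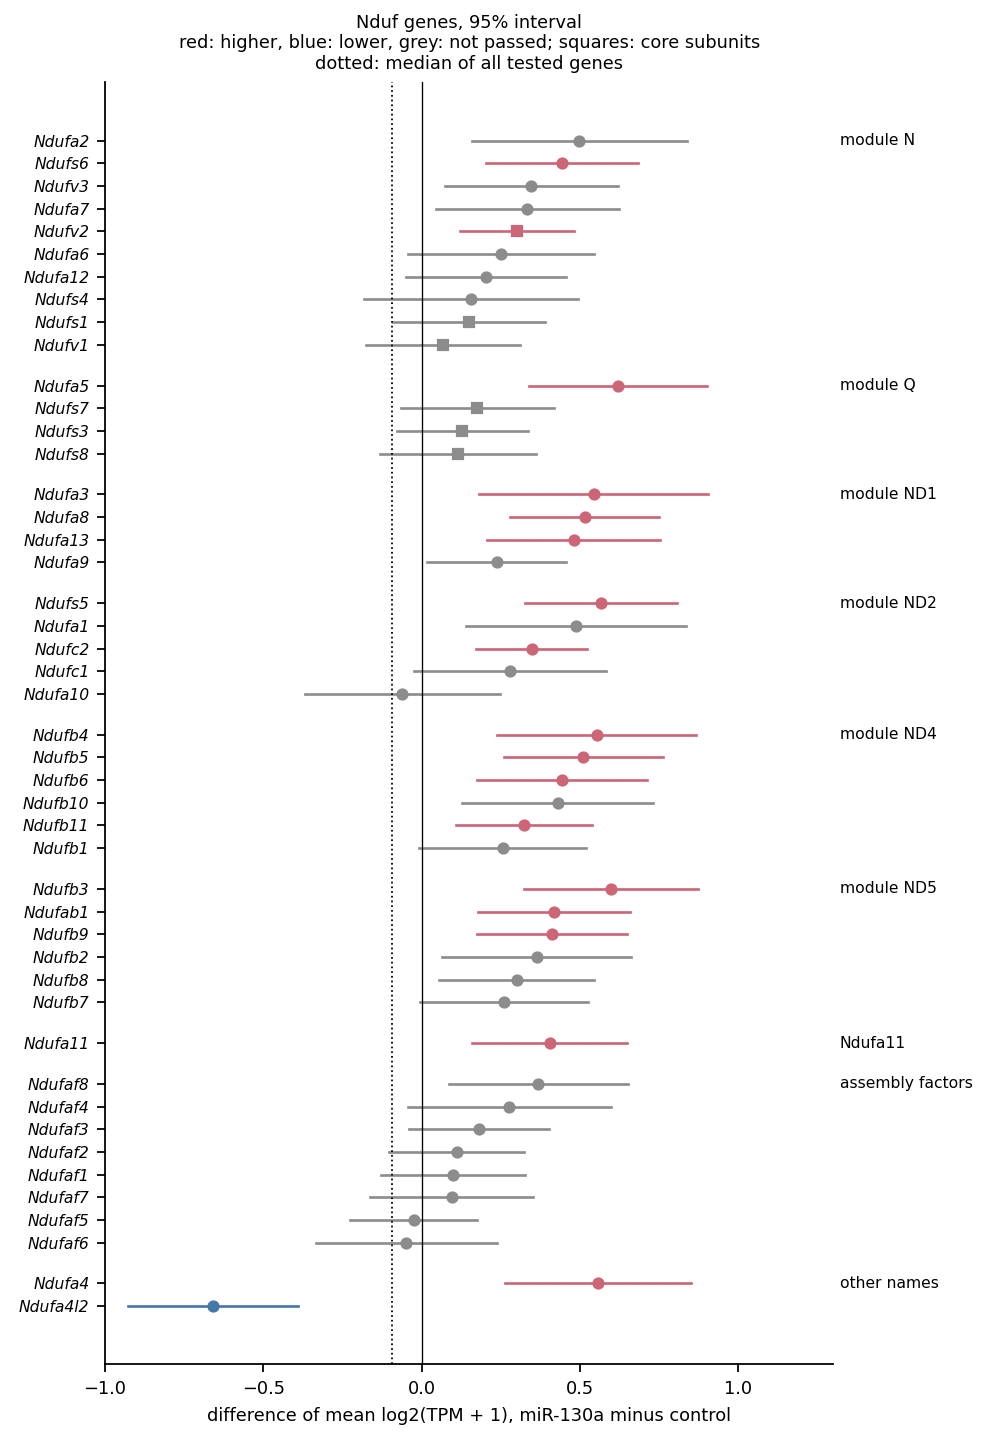
Log2 fold change (miR-130a minus control, on log2(TPM + 1)) with its 95% interval for the Nduf genes named here, by module. Red marks genes called higher, blue lower and grey not passed, squares are core subunits and the dotted line is the median of all tested genes, −0.09. Most structural subunits lie above 0, the core subunit Ndufv1 lies close to 0, and the assembly factors extend from −0.05 to 0.37.

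The library values of the structural subunits, called or not, share a pattern within groups. Control library 5 was the lowest of its group for 25 of 37 structural subunits and control library 9 the highest for 23. In the miR-130a group, library 18 was the lowest for 26 and library 17 the highest for 18. A library score was formed as the mean over subunits of the log2 value after each gene was centred on its own mean. For structural subunits the score was −0.19, −0.11, −0.35, −0.18 and 0.0002 in control libraries 3, 4, 5, 7 and 9, and 0.28, 0.13, 0.13, 0.30 and 0.0035 in miR-130a libraries 13, 14, 15, 17 and 18. Control 9 and miR-130a library 18 were therefore nearly level. With control 9 left out, 21 structural subunits rose, where 3.23% of all tested genes did. With control 7 or miR-130a library 13 left out, 6 structural subunits rose, where 0.894% and 0.947% of all did. With control 3 or miR-130a library 17 left out 8 rose (1.28% and 2.34% of all). With control 5, miR-130a library 14 or miR-130a library 15 left out 10 rose (1.70%, 1.02% and 1.22% of all). With no filter on low values 7 rose (0.486% of all). The other 10 called subunits, with Ndufs6, Ndufv2 and Ndufb11 among them, each missed the threshold both without control 7 and without miR-130a library 13. Over all single libraries left out, the highest adjusted p was 0.0594 for Ndufs6 and 0.120 for Ndufb11 (limma), the lowest and highest such value of these 10. The calls of Ndufs5, Ndufa5, Ndufa8, Ndufb3, Ndufb5 and Ndufc2 held in all 21 alternative settings, and no structural subunit was called lower in any of them.

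**Figure D2:**
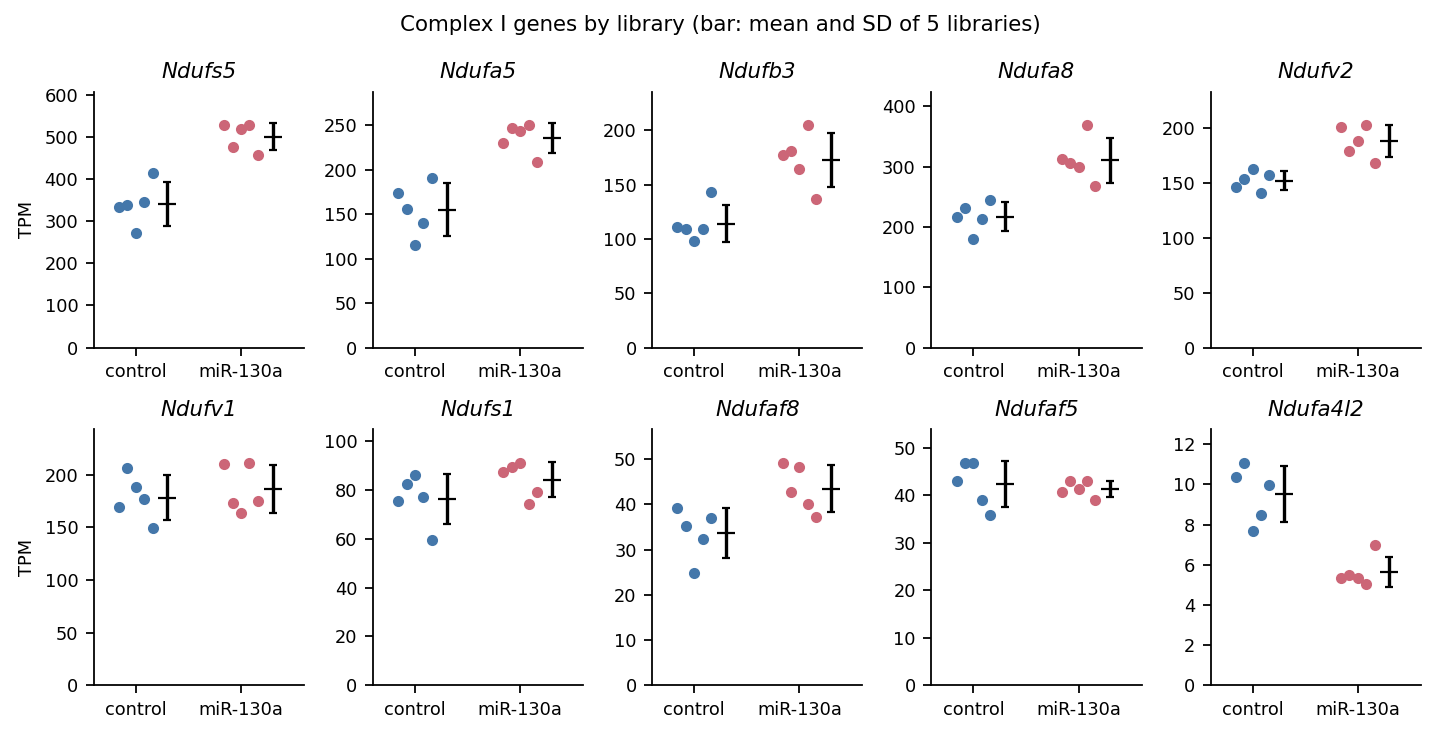
TPM of 10 example genes in each of the 5 control (blue) and 5 miR-130a (red) libraries, with the mean and SD of each group as bars and axes that start at 0. The groups are separate for Ndufs5, Ndufa5, Ndufa8, Ndufv2 and, in the downward direction, Ndufa4l2, and overlap for Ndufb3, Ndufv1, Ndufs1, Ndufaf8 and Ndufaf5.

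The 8 assembly factors were expressed at lower levels than any structural subunit, with control means from 9.56 to 45.9 TPM against 48.1 to 407 TPM. Ndufaf8, a small factor of the Q module pathway, came nearest to passing: it was at 39.1, 35.3, 24.8, 32.3 and 36.9 TPM in the controls and at 49.2, 42.7, 48.2, 40.1 and 37.3 TPM in miR-130a libraries. The groups overlapped, since control 3 exceeded miR-130a library 18, and the log2 difference was 0.37 (interval 0.09 to 0.65; adjusted p = 0.0829, limma). Ndufaf4, which acts with Ndufaf3 on the Q module, was at 11.3, 8.24, 10.02, 8.96 and 9.28 TPM in the controls and at 10.8, 11.6, 16.7, 8.96 and 11.8 TPM in miR-130a libraries (0.28, adjusted p = 0.243). Library 15 was the highest of all, and library 17 was level with a control. Ndufaf3 averaged 34.0 ± 3.81 and 38.7 ± 3.82 TPM (0.18, adjusted p = 0.272), and Ndufaf2, a paralogue of Ndufa12 that is exchanged for it late in assembly, 45.9 ± 5.58 and 49.5 ± 3.84 TPM (0.11, adjusted p = 0.503).

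The larger, enzyme-like factors were close to level. Ndufaf1, which takes part in early membrane assembly, had a log2 difference of 0.10 (interval −0.13 to 0.33). Ndufaf5, a hydroxylase, and Ndufaf7, a methyltransferase, both acting on arginines of Q module subunits, had −0.02 (interval −0.23 to 0.18) and 0.09 (interval −0.16 to 0.35). Ndufaf6 had −0.05 (interval −0.33 to 0.24). The signs of Ndufaf5 and Ndufaf6 turned under several scalings. In a further list of 13 complex I assembly factors without the Nduf name, 0 were called and the median was 0.09. Without adjustment 3 of 13 were higher, a larger share than the 6.36% of all tested genes, though the list is short. Lyrm2 (0.30, adjusted p = 0.107) and Aifm1, a flavoprotein needed for respiratory chain biogenesis (0.27, adjusted p = 0.114), had the lowest p. Under median-ratio scaling Ndufaf8 passed (0.48), and under quantile normalization Ndufaf4 (0.46) and Ndufaf8 (0.48) passed. Lyrm2 and Aifm1 passed under both as well (adjusted p = 0.0280 and 0.0335 under median-ratio scaling, 0.0361 and 0.0136 under quantile normalization, limma), so the absence of calls among assembly factors depends on the scaling.

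Structural subunits and assembly factors were compared within each library, by the difference of their scores. The structural-minus-assembly difference was −0.24, −0.04, −0.31, −0.02 and 0.11 in control libraries 3, 4, 5, 7 and 9 and 0.18, 0.07, −0.04, 0.29 and 0.02 in miR-130a libraries 13, 14, 15, 17 and 18. The group means were −0.10 ± 0.17 and 0.10 ± 0.13 (SD, n = 5 each), a difference of 0.20 that was of the order of the spread between libraries. It was 0.13 under quantile normalization and 0.30 without controls 7 and 9. Control 9 lay above miR-130a libraries 14, 15 and 18. A higher count of calls among structural subunits is therefore not by itself a measured difference between the classes, and no test was made of it. Supernumerary minus core scores gave −0.13 ± 0.23 and 0.13 ± 0.04, and control 9 had the highest of all 10 values, 0.22.

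**Figure D3:**
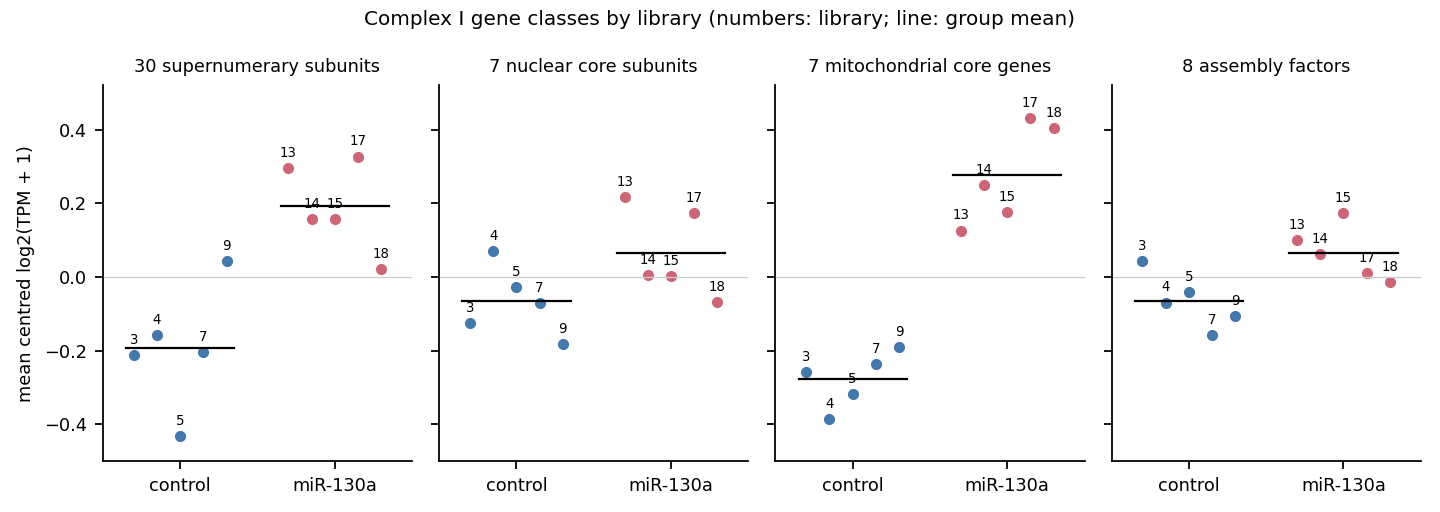
Mean centred log2(TPM + 1) of the 30 supernumerary subunits, the 7 nuclear core subunits, the 7 mitochondrially encoded core genes and the 8 assembly factors in each library, with library numbers beside the points and group means as lines. The core and assembly factor scores of the groups overlap, the supernumerary score of control 9 lies above that of miR-130a library 18, and the scores of the mitochondrially encoded genes are separate.

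The members set apart from both classes moved in opposite directions. Ndufa4 (ENSMUSG00000029632), first assigned to complex I and now known as a subunit of complex IV, was at 544, 418, 385, 499.6 and 609 TPM in the controls and 759, 720.4, 829, 634 and 640.2 TPM in miR-130a libraries. It rose without overlap (0.56, adjusted p = 0.0196, limma), a call that missed the threshold without miR-130a library 13 (adjusted p = 0.0534) and with no filter on low values (adjusted p = 0.0594). Ndufa4l2 (ENSMUSG00000040280), its paralogue, known to be induced by hypoxia and expressed in vessel-associated cells, was at 10.4, 11.1, 7.66, 8.50 and 9.96 TPM in the controls and 5.35, 5.51, 5.32, 5.05 and 6.98 TPM in miR-130a libraries. It fell, with all miR-130a libraries below all controls (−0.66, adjusted p = 0.00588), and was the only member called lower. Beside it, 6 of 8 endothelial markers fell, where 11.3% of all tested genes did. The summed level of the 8 was 287 to 343 TPM in the controls and 206.5 to 249 TPM in miR-130a libraries. The part of endothelial cells in the fall of Ndufa4l2 was not tested. Ndufb11b was listed at 0 in all 10 libraries.

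The mitochondrially encoded subunits of the same enzyme rose as well. Of the 7 mt-Nd genes, 6 rose: mt-Nd1, mt-Nd3, mt-Nd4, mt-Nd4l, mt-Nd5 and mt-Nd6. In all tested genes 2.19% were called higher. mt-Nd6 had the lowest p, with 3924 ± 464 TPM in the controls and 5756 ± 297 TPM in miR-130a libraries (SD, n = 5 each; log2 fold change 0.56, adjusted p = 0.0079, limma). The libraries were made from polyadenylated RNA. How fully such selection captures each mitochondrial transcript, mt-Nd6 included, was not tested. mt-Nd4l had the highest fold change (0.95, adjusted p = 0.0190), followed by mt-Nd3 (0.70, adjusted p = 0.0220) and mt-Nd4 (0.53, adjusted p = 0.0198). Among the controls, library 5 was the highest for mt-Nd4 (7334 TPM) and the lowest for mt-Nd4l (2067 TPM). How reads were divided between mt-Nd4 and mt-Nd4l was not tested. mt-Nd1 averaged 9888 ± 588 and 13195 ± 1063 TPM (0.41, adjusted p = 0.0275), and mt-Nd5 had 0.45 (adjusted p = 0.0387). mt-Nd2 did not pass in the main fit (0.28, adjusted p = 0.0985), and its sign turned under quantile normalization. It was called higher with mitochondrially encoded genes taken out of the total (0.35, adjusted p = 0.0483, limma). It was also called higher with the coding length trend removed (0.46, adjusted p = 0.0292, limma). The calls of mt-Nd1, mt-Nd3, mt-Nd4 and mt-Nd5 were lost without control 7, and under quantile normalization mt-Nd6 alone stayed past the threshold. With no filter on low values, all 6 calls were lost, with adjusted p from 0.102 for mt-Nd4l and 0.124 for mt-Nd6 to 0.514 for mt-Nd1 (limma). Transcripts encoded by mitochondrial DNA took 14.7% ± 1.48 of the TPM total in the controls and 18.2% ± 1.96 in miR-130a libraries. The Nduf genes together took 0.805% ± 0.072 and 1.03% ± 0.088. With mitochondrially encoded genes taken out of the total, 20 structural subunits rose, and the 16 called before were among them. In that setting 2.98% of all tested genes were higher.

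Genes of the other respiratory complexes were counted the same way. In all tested genes 2.19% were called higher, and the median log2 fold change was −0.09. In complex III, 4 of 12 genes rose and 0 fell (median 0.27), among them the small accessory subunits Uqcr11 (0.64, adjusted p = 0.0150) and Uqcrh (0.55, adjusted p = 0.0203; 0.0550 without miR-130a library 13 and 0.0607 with no filter). In complex IV, 7 of 19 rose (median 0.35, Ndufa4 included), with Cox5a going from 304 ± 31.5 to 465 ± 58.1 TPM (0.61, adjusted p = 0.0049) and Cox7a2 at 0.66 (adjusted p = 0.0153). In the ATP synthase, 8 of 17 rose (median 0.39), led by Atp5mc1, of the rotor ring (0.67, adjusted p = 0.0067), and Atp5pb, of the stalk (0.38, adjusted p = 0.0118). In complex II, which pumps no protons and also belongs to the citric acid cycle, 1 of 8 rose, the assembly factor Sdhaf4 (0.42, adjusted p = 0.0466, lost when any of 8 single libraries was left out). The complex II count, 1 of 8, is too few to read against the share of all genes. The complex II subunit Sdhb did not pass in the main fit (0.21, adjusted p = 0.216, limma). It was called higher with the mRNA or coding length trend removed (adjusted p = 0.0293 and 0.0258, limma). The median over the complex II list was 0.09.

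Regulators of mitochondrial biogenesis and other routes of NADH oxidation were not called in the main fit. Of 11 regulators, 0 passed in either direction by limma, with a median of −0.06. Without adjustment 2 of 11 were lower, where 22% of all tested genes were. Nrf1, a transcription factor known to act at many promoters of respiratory chain genes, averaged 9.46 ± 0.434 TPM in the controls and 7.56 ± 1.23 TPM in miR-130a libraries (−0.30, adjusted p = 0.0966). Pprc1, a coactivator, had −0.32 (adjusted p = 0.126). Of 11 genes for other NADH oxidation, such as shuttles and lactate dehydrogenase, 0 passed. Without adjustment 1 of 11 was lower, beside the same 22% of all. Ldhb (−0.34, adjusted p = 0.101) and the carrier Slc25a11 (0.23, adjusted p = 0.248) had the lowest p of that list. Some of these genes passed in other settings (limma). Nrf1 was called lower without miR-130a library 14 (adjusted p = 0.0470), and Pprc1 without control 9 (0.0330) or controls 7 and 9 (0.0301). Ldhb was called lower without control 9 (0.0453). Slc25a11 was called higher under quantile normalization (0.0417) and with the mRNA or coding length trend removed (0.0254 and 0.0299).

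Promoters of members are shown because the subunits moved together. Windows from 250 bases before to 50 after the annotated start (RefSeq, GRCm38.p6) were found for 41 of 48 members. They were searched on both strands for GCGCA followed by any base and GCGC, a form of the NRF1 motif, for CCGGAAG (ETS family) and for AAGATGGC (YY1). The NRF1 form was settled after promoters of risen members had been looked at, so its counts are a description. It was present in 7.17% of 17492 protein-coding genes with a window, a set not limited to the 13273 protein-coding genes tested here. Among structural subunits with a window it was in 6 of the 15 risen (Ndufa5, Ndufa8, Ndufa11, Ndufb4, Ndufs5 and Ndufs6) and in 1 of 18 that did not pass (Ndufa6). Among assembly factors it was in 2 of 7 (Ndufaf4 and Ndufaf5). The ETS motif was in 12.1% of structural subunits and 12.9% of all genes, with 6.67% among the risen and 16.7% among those that did not pass. The YY1 motif was in 21.2% of structural subunits and 3.57% of all genes, with 13.3% among the risen and 27.8% among those that did not pass, so the share of risen subunits was the lower one for both of these motifs. Shown are 3 risen subunits with the NRF1 letters in capitals, starting 98, 190 and 30 bases before the start of Ndufs5, Ndufa5 and Ndufa8, and the core subunit Ndufv1, which has none of the 3 motifs in this window. All 4 genes lie on the minus strand, and the sequences are written in the direction of the gene: chr4:123718137-123718436 for Ndufs5, chr6:24527477-24527776 for Ndufa5, chr2:36049289-36049588 for Ndufa8 and chr19:4012706-4013005 for Ndufv1.
Ndufs5: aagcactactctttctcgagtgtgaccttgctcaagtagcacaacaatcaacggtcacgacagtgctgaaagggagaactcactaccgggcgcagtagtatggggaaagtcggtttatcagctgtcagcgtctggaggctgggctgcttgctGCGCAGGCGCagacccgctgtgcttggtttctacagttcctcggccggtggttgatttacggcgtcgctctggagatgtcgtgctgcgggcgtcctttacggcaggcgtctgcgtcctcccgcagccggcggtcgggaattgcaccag
Ndufa5: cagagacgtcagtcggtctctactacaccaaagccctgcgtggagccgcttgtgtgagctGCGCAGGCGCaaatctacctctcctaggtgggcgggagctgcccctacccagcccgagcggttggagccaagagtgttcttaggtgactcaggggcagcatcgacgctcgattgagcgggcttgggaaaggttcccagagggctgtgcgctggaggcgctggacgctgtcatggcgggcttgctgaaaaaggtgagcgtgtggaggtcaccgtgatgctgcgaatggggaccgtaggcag
Ndufa8: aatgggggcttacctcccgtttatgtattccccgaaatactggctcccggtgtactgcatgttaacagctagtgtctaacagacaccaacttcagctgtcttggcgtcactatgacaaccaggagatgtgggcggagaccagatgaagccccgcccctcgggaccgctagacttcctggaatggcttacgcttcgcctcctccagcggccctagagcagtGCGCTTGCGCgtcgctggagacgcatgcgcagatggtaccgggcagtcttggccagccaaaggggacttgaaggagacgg
Ndufv1: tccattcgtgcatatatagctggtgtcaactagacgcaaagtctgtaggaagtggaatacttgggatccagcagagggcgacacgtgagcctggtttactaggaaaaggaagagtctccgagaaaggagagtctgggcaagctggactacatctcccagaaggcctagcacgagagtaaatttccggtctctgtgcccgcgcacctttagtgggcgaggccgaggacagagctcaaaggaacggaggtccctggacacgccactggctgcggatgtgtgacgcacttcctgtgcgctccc
A missing match says only that these letters are not in the window.

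Fold changes varied with the length of the coding sequence. Across 36 structural subunits with an annotated coding length, the log2 fold change had a Pearson correlation of −0.66 and a Spearman correlation of −0.64 with log2 length, across 8 assembly factors −0.83 and −0.83, and across 13213 protein-coding genes −0.12 and −0.19. These points are genes measured in the same 10 libraries and are not replicates. Of the 26 structural subunits under 600 nucleotides, 15 rose (median 0.42), whereas 8.81% of all 1680 protein-coding genes of that length were higher (median 0.04). Of the other 11, including Ndufb1 with no length in the annotation, 1 rose (median 0.15). In the class from 300 to 450 nucleotides, 10 of 15 structural subunits rose and 12.4% of 619 genes did. From 900 to 1500 nucleotides, 0 of 5 rose and 1.31% of 3654 genes did. When the trend over coding length was subtracted within each library, added after the data were seen, 25 structural subunits and 0 assembly factors rose. In that setting 10.1% of all tested genes were higher, where 2.19% were before. The medians were 0.41 and 0.27 where all genes had 0.06. Relative to the median of all genes, the structural median was 0.35, against 0.44 before.

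**Figure D4:**
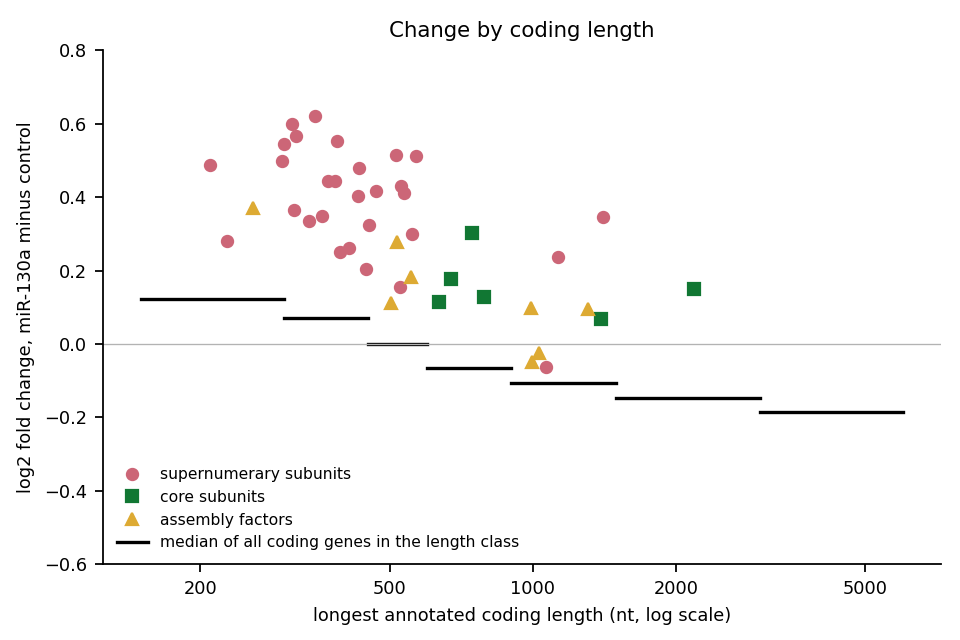
Log2 fold change (miR-130a minus control, on log2(TPM + 1)) against the longest annotated coding length in nucleotides on a log axis, for supernumerary subunits (circles), nuclear core subunits (squares) and assembly factors (triangles). Black lines are the medians of all tested protein-coding genes in each length class, which fall from 0.12 under 300 nucleotides to −0.19 from 3000 on, and most short subunits lie above the line of their class.

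Markers of the cell types in such a punch moved in part with the groups. Excitatory neuron markers had 0 of 8 called and a summed level of 1695 to 3243 TPM in the controls and 2044 to 2521 TPM in miR-130a libraries. Of inhibitory neuron markers 3 of 8 rose, namely Sst, Vip and Npy, while Gad1, Gad2, Slc32a1, Pvalb and Lhx6 did not pass. The summed level of all 8 was 1120 to 1418 and 1539 to 2020 TPM, of which Sst alone averaged 645 and 1065 TPM. Among microglial markers 9 of 10 fell (1774 to 3560 and 654 to 972 TPM). Of astrocyte, oligodendrocyte and striatal markers, 1 of 8, 0 of 8 and 1 of 6 fell. In all tested genes 11.3% were called lower and 2.19% higher, and 1 of 8 or 1 of 6 is too few to read against that share. None of the markers was listed at 0 in all libraries, and the part of cell composition in the Nduf changes was not tested. The scaling also bears on the counts over all genes. As deposited, 343 genes were higher and 1767 lower, so that 16.3% of calls were higher, and the share was 42.0% under median-ratio scaling, 50.6% under quantile normalization and 26.2% without mitochondrially encoded genes. Median-ratio scaling shifted the median of all genes by 0.10 and quantile normalization by 0.15. Relative to the median of all genes, the structural median was 0.44 as deposited, 0.45 and 0.33, and the assembly median 0.20, 0.21 and 0.17.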

How the data were processed

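RNA sequencing of medial prefrontal cortex punches (1 mm) from mice was used, with 5 control AAV and 5 miR-130a-3p AAV libraries. Per the labels' protocols, stranded poly(A) libraries were made from RNA whose integrity number was 6.5 or more. The submitters' processing notes name GRCm39 and the tools fastp, HISAT2, RSEM, and also DESeq2, with no versions or roles. The values the authors deposited are TPM, by gene and library. TPM keeps no depth, so the reads behind a value are unknown and no counting interval was computed. A library's TPM add to a fixed total, so a rise in abundant transcripts lowers the others.

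Columns were matched to libraries by the sample titles, and the 2 columns of group means were not used. Genes with a mean of at least 1 TPM (15680, of which 47 Nduf genes) were tested on log2(TPM + 1), which understates changes of low genes, with limma 3.58.1 (lmFit, eBayes with trend) in R 4.3.3 (data.table package, version 1.17.8), 2-sided, with Benjamini-Hochberg adjustment over all tested genes and a threshold of 0.05, without covariates, since the labels give no batch. The script was tested on simulated data. Members and lists were chosen with earlier results of these data known. Values are given for every assembly factor, every structural subunit past the threshold, the abundant subunits, the 2 of lowest p in each module, the mt-Nd genes and the 2 of lowest p in every other list; further members named were chosen after their values were seen, and 1 member, included in the counts, is not reported here by name or in the plots of single genes. Lengths and 3′ regions came from GENCODE M21 (GRCm38), matched by gene identifier, and the microRNA and promoters from RefSeq tables of GRCm38.p6, matched by name. Because the build differs from GRCm39, other coordinates are not given. Motif searches and figures used Python 3.11.15, numpy 2.4.6, pandas 2.3.3 and matplotlib 3.10.9. Alternatives covered the pseudocount (0.1), the filter, 4 scalings, variance moderation, trends over length (loess, span 0.3) and left-out libraries.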

Additional observations from a re-analysis of the deposited data

Results flagged for a closer look

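In 6 of 112 groups of 5 libraries checked (53 genes and 3 library scores), 1 library stood apart from the other 4, where chance gives about 1 in 20. Ndufaf7 was at 33.98 TPM in control library 3, with the other controls between 22.65 and 24.58 TPM. Ndufb3 was at 142.77 TPM in control library 9, with the others between 97.91 and 110.73 TPM. Ndufa4l2 was at 6.98 TPM in miR-130a library 18, with the others between 5.05 and 5.51 TPM. mt-Nd2 was at 7697.28 TPM in control library 5, with the others between 6392.99 and 6756.19 TPM. Lyrm2 was at 35.62 TPM in miR-130a library 17, with the others between 48.45 and 53.33 TPM. Atp5mc1 was at 299.57 TPM in control library 5, with the others between 356.34 and 368.52 TPM.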

How the results depend on the processing

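No paired analysis was possible because the library numbers are not shared between the groups. No structural subunit and no assembly factor was called lower under any alternative. The 16 structural subunits called higher became 7 with no filter on low values, where more genes were tested and 0.486% of all were higher. They became 25 when the trend over mRNA length or over coding length was removed, both added after the data were seen. There 11.5% and 10.1% of all tested genes were higher, against 2.19% in the main fit. The other settings with all libraries gave 13 to 20. Leaving out 1 library gave 6 to 21, where 0.894% to 3.23% of all tested genes were higher. Assembly factors called higher became 1 under median-ratio scaling, 2 under quantile normalization and 2 with the mRNA length trend removed (Ndufaf3 and Ndufaf4), where 5.52%, 6.83% and 11.5% of all tested genes were higher. They stayed at 0 under the other settings. The median of the assembly factors, 0.10, became 0.22 under median-ratio scaling, 0.22 under quantile normalization, 0.26 without the mRNA length trend and 0.27 without the coding length trend. Leaving out 1 library moved it between 0.08 and 0.15, the structural median between 0.29 and 0.39, and the structural-minus-assembly difference between 0.15 and 0.26; that difference was 0.13 under quantile normalization and 0.30 without controls 7 and 9. The cause of these shifts was not tested.

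Some log2 fold changes near 0 changed sign. Under median-ratio scaling, rescaling without mitochondrially encoded genes, quantile normalization, and with the mRNA and the coding length trend removed, Ndufaf5 became 0.0900, 0.0352, 0.0916, 0.107 and 0.154, and Ndufaf6 0.0606, 0.00895, 0.122, 0.0645 and 0.131. Leaving out 1 library moved Ndufaf5 between −0.0808 and 0.0133 and Ndufaf6 between −0.116 and 0.0286. mt-Nd2 became −0.16 under quantile normalization, and Ndufv1 −0.0139 without controls 7 and 9. The depth behind these TPM is unknown, so the part of sampling error in low genes such as Ndufaf4 cannot be given.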
